A study of Arabidopsis thaliana with 8 samples.

Results

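A set of 194 probe sets, of 22596 searched, stood higher in inflorescences of both single insertion lines, T13 and T14, than in the double heterozygote HET and the control CON. A probe set is a group of oligonucleotides on an Affymetrix ATH1 array that together read 1 transcript, or several similar ones. A probe set was a member when all 4 arrays of T13 and T14 lay above all 4 arrays of HET and CON and when the mean of T13 and T14 exceeded the mean of HET and CON by at least 0.5. Both criteria were set on the log2(intensity + 16) scale. Control probe sets and a block of 150 probe sets with consecutive identifiers were not searched. The members were selected on the intensities of all 8 arrays, so the height of the single lines over HET and CON is a description here and carries no test. All log2 differences are on the log2(intensity + 16) scale, which understates the differences of dim probe sets.

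All plants were *Arabidopsis thaliana* of the Ws ecotype, and all arrays read total RNA of inflorescences taken at growth stage 6.0. In T13 a T-DNA is inserted in TCP14 (AT3G47620), and in T14 one is inserted in TCP15 (AT1G69690). HET plants are heterozygous at both loci, with 1 insertion allele of each, and CON has no modification in its labels. Each group had 2 arrays, the title of HET replicate 2 calls it a repeat, and 10 plants were pooled according to the design text. The zygosity of T13 and T14 is not in the labels. Nor do the labels tie the 2 arrays of a group to different pools of plants, so the p-values cover array-to-array spread that could be technical. Each gene is represented by a single insertion line, so an effect of the insertion and other differences of that line cannot be told apart. In RNA of whole inflorescences, more cells of a type and more RNA per cell also cannot be told apart.

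TCP14 and TCP15 encode closely related class I TCP proteins, plant transcription factors that bind GC-rich promoter elements. They are known to act redundantly on cell proliferation in developing leaves, internodes and floral organs, and they take part in cytokinin and gibberellin responses.

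TCP15 itself had intensities of 205.9 and 204.1 in T13, 86.0 and 68.8 in T14, 188.2 and 221.8 in HET, and 198.2 and 244.0 in CON. Both T14 arrays lay below the other 6, and TCP15 was no member. TCP14 was not analysed here, so its level does not check the T13 label. The tissue label could be checked only thinly. UFO, a regulator of floral organ identity, was the only gene with a named probe set in a list of 10 floral identity genes, and it read 2.4 to 6.3 on all arrays. The gynoecium and ovule genes SPT and INO read 66.7 to 129 and 69 to 111.5. The tapetum list summed to 519.9 and 530.1 in T13, 116.1 and 220.9 in T14, 1109.9 and 720.8 in HET, and 387.2 and 426.4 in CON over 3 probe sets.

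Array-wide values differed between arrays, and their part in the member pattern was not tested. Array medians of log2(intensity + 16) over the probe sets searched were 6.22, 6.23, 6.19 and 6.21 on the T13 and T14 arrays, against 6.07 and 6.17 on the HET arrays and 6.19 and 6.15 on the CON arrays. Taken per probe set, the difference of the single lines from HET and CON had a median of 0.05 over the probe sets searched. The GAPDH control ratio (5′ probe set over 3′ probe set) is a measure of 3′ bias in the labelled RNA, and a higher ratio means less bias. On the T13 and T14 arrays the ratio was 0.0639 to 0.0969. It was 0.345 and 0.127 in HET and 0.086 and 0.129 in CON. HET replicate 1, with the highest ratio, also had the lowest array median. The same ratio for actin did not set this array apart: it was 0.0732, within the 0.0695 to 0.1192 of the other arrays. CON replicate 1 lay within the range of the single lines in array median and GAPDH ratio. The other HET and CON arrays had lower medians and higher GAPDH ratios than all T13 and T14 arrays.

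Members made up 0.859% of the probe sets searched. The reverse pattern, all 4 arrays of the single lines below all others with a mean difference of at least 0.5, was met by 130 probe sets, or 0.575%. Of those meeting either pattern, 59.9% were on the higher side. That split depended on the scaling of the arrays. After quantile normalization 127 were higher and 156 lower (44.9% higher), and after centring each array on its median 87 were higher and 242 lower (26.4% higher). Centring on the median of the probe sets kept by an intensity filter gave 109 higher and 198 lower (35.5% higher), and a pseudocount of 32 in place of 16 gave 77 higher and 91 lower (45.8% higher). The side with more probe sets thus depended on the scale. All 194 members kept a positive difference in each of these scales. The lowest value was 0.41 after quantile normalization, 0.43 and 0.45 after the 2 kinds of centring and 0.30 with the pseudocount of 32. With the pseudocount, the separation of the arrays fixed the positive sign in advance. Centring moves every difference by the same small amount, so there the minimum of 0.5 fixed the sign. The separation of the arrays was kept by fewer. All single-line arrays lay above all others in 163 members after quantile normalization, 147 after centring and 167 after centring on the kept probe sets. A pseudocount leaves the order of the arrays unchanged, so all 194 stay separated with 32 by construction.

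**Figure D1:**
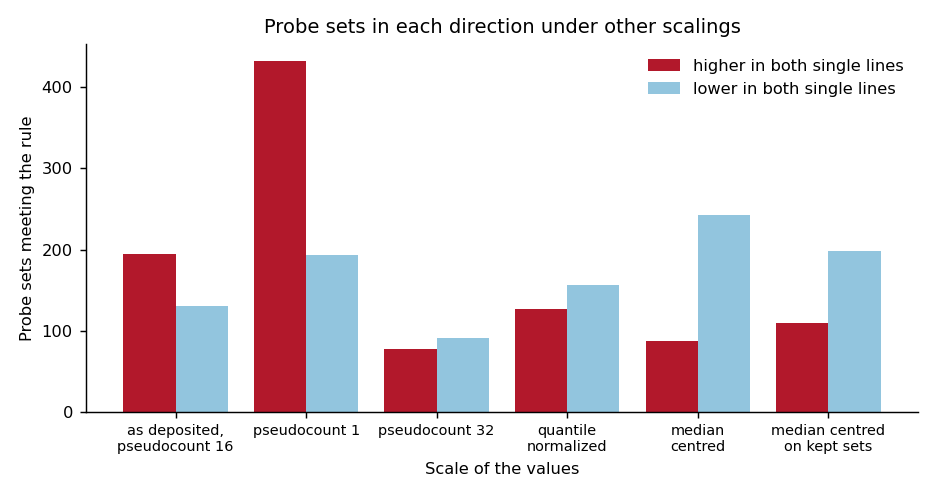
Number of probe sets meeting the rule in each direction (vertical axis) under 6 scales of the values (horizontal axis). Red bars count probe sets higher in both single lines and blue bars those lower in both; the deposited scale gave 194 and 130, and median centring gave 87 and 242.

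The members were mostly modest in level and in difference. Their median difference between the single lines and the other arrays was 0.58, with a range from 0.5 to 1.16, and 110 of the 194 lay under 0.6. Just 5 reached 1. The gap between the lowest array of the single lines and the highest HET or CON array had a median of 0.14 and a range from 0.002 to 0.70. Mean intensity over all arrays had a median of 49.4 over the members and of 57.6 over the probe sets searched. The mean intensity was below 50 in 99 members and at least 500 in 6.

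Seen array by array, the members sat at nearly the same height in both single lines. Median member intensities were 62 and 62.4 in T13, 59.9 and 63.3 in T14, 32.9 and 38.8 in HET, and 33.2 and 37 in CON. Relative to CON, the median log2 difference was 0.60 in T13 and 0.60 in T14, against 0.06 and 0.04 over all probe sets searched. Relative to HET it was 0.60 in T13 and 0.61 in T14. These 4 differences enter the rule and are given as descriptions.

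**Figure D2:**
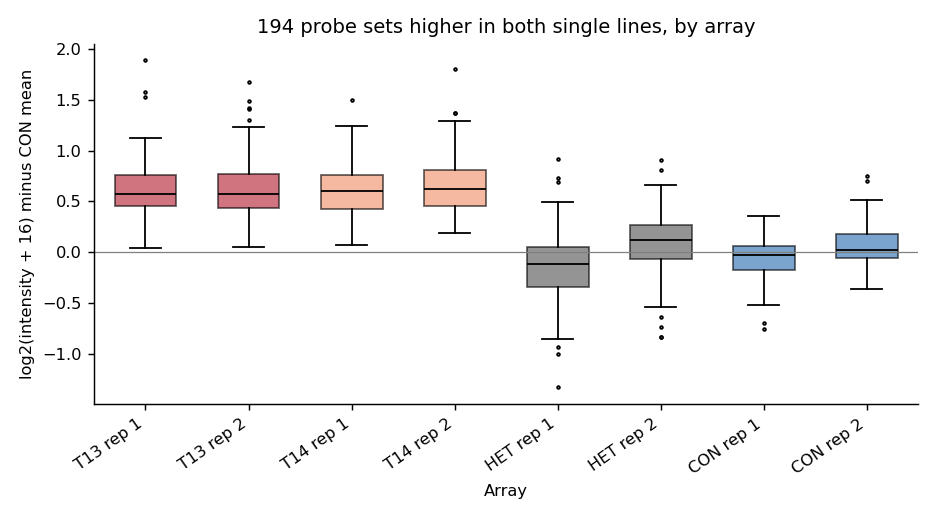
Log2(intensity + 16) minus the CON mean of the same probe set (vertical axis) for the 194 members on each array (horizontal axis); boxes span the quartiles, the line is the median, whiskers reach 1.5 times the box height and points lie beyond. T13 and T14 arrays sit at about the same height, HET replicate 1 has its median below the CON mean and HET replicate 2 above it.

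Of the 194 members, 116 had a single gene in the platform annotation, 5 listed several genes and 73 were not listed there and stay unnamed. The probe set with the greatest difference (1.16) lists several genes and the next 2 (1.12 and 1.08) were unnamed. Among members with a single gene, 13 carried a symbol and 103 were known by locus tag only. Descriptive names in the RefSeq table were present for 7 of the 116 (6.03%), close to the 6.75% of all searched probe sets of a single gene. The functional classes read from these names therefore placed only 4 members: 2 of 127 searched cell wall and carbohydrate enzymes, 1 of 93 oxidoreductases and 1 of 20 transporters. Transcription regulators (81 searched) and disease resistance proteins (10 searched) held 0 members by these names. As members were 0.859% of all probe sets searched, classes this small would hold few or none, and the counts are no result. AGL71, MYC3, JKD and AT5G40100, described below, belong to such families but were not placed by these names. Other roles below are textbook knowledge of the gene or its family, and the order in which genes are described is by role and not a finding.

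The named member with the greatest difference was AT5G40450, a very long protein that has been linked to the structure of the vacuole. Its intensities were 310.6 and 214.8 in T13, 275.1 and 302.6 in T14, 51.4 and 176.1 in HET, and 127.2 and 183.4 in CON, a mean difference of 1.06. The 4 arrays of the single lines were high, and HET replicate 1 was the lowest array. AT4G32340, a tetratricopeptide repeat protein, had 101.5 and 142.3 in T13, 157.7 and 158.8 in T14, 40.2 and 87.9 in HET, and 36.3 and 87.5 in CON (difference 1.04). Here HET replicate 2 and CON replicate 2 were close to each other and about midway between the low arrays and the single lines.

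AT3G62550, AT5G40100 and AT1G54410 belong to protein families known from stress or defence. AT3G62550, of the universal stress protein family, had 418.9 and 349.1 in T13, 369.2 and 350.1 in T14, 122.5 and 246.1 in HET, and 148.1 and 279.1 in CON (difference 0.92). AT5G40100, of the TIR-NBS-LRR family of disease resistance proteins, had 20.8 and 26.8 in T13, 28.8 and 35.5 in T14, 6.2 and 6.1 in HET, and 5.1 and 12.9 in CON (difference 0.90). All of its values were near the floor of the arrays. AT1G54410, the dehydrin HIRD11, a small hydrophilic protein of water stress, was the brightest member by mean intensity. It had 2658.6 and 2331.2 in T13, 2299.6 and 2195.3 in T14, 1242.1 and 1495.5 in HET, and 1895.7 and 1848.5 in CON (difference 0.56), with CON between HET and the single lines.

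OCT1 and AT2G45820 encode membrane proteins. OCT1, a transporter of organic cations and carnitine, had 339.7 and 139.9 in T13, 138.6 and 213.4 in T14, 106.8 and 114.8 in HET, and 106.2 and 59.8 in CON (difference 0.93). T13 replicate 1 stood above its partner by more than the distance between the lowest single-line array and HET. AT2G45820, a remorin, which is a plant-specific protein of plasma membrane domains, had 790.8 and 911.9 in T13, 713.4 and 978.1 in T14, 448.2 and 602.6 in HET, and 422.3 and 523.8 in CON (difference 0.75). Its single lines agreed closely, with means of 851.4 ± 85.6 in T13 and 845.8 ± 187 in T14, against 525.4 ± 109 in HET and 473.1 ± 71.8 in CON (SD, n = 2 each). AT3G50685 and AT3G01690, an alpha/beta hydrolase, were also among the 5 brightest named members, with differences of 0.59 and 0.57. Without HET replicate 1 the differences were 0.41 for AT3G50685, 0.44 for AT3G01690 and 0.44 for the dehydrin AT1G54410. All of these lay under the difference minimum of the rule. The others of the 5 brightest, AT2G45820 and cox1 (described below), stayed above the minimum without that array, at 0.70 and 0.67.

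Enzymes of the cell wall and of specialised metabolism included the neighbouring genes BGLU46 and BGLU45, beta-glucosidases that act on the glucosides of lignin precursors. BGLU46 had 30.7 and 69.9 in T13, 48.3 and 43.5 in T14, 10 and 25.7 in HET, and 17.1 and 24.3 in CON (difference 0.85). BGLU45 had 37.5 and 55.2 in T13, 46 and 55.6 in T14, 20.4 and 26.5 in HET, and 21.6 and 36.6 in CON (difference 0.62). The copper amine oxidase CuAO1, which oxidises polyamines, had a difference of 0.54, and the sulfurtransferase STR18 also had 0.54.

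Regulatory proteins among the members with a symbol were AGL71, JKD, MYC3, XERICO and HIS1-3, of which AGL71 and JKD lay below the intensity filter. AGL71, a MADS-box transcription factor related to the flowering regulator SOC1, had 23.2 and 16.8 in T13, 23.6 and 16.1 in T14, 4.1 and 6.2 in HET, and 4.2 and 3.1 in CON (difference 0.81). Its gap of 0.53 between the sides was among the 5 widest of named members. MYC3, a basic helix-loop-helix factor of jasmonate signalling, had 74 and 87.2 in T13, 86.7 and 96.6 in T14, 63.1 and 69 in HET, and 42.4 and 50.3 in CON (difference 0.51). Both HET arrays of MYC3 lay above both CON arrays. XERICO, a RING-type protein that promotes abscisic acid accumulation, had 311.3 and 292.2 in T13, 236.2 and 250.1 in T14, 164.9 and 198.5 in HET, and 152.4 and 213.8 in CON (difference 0.54). JKD, a zinc finger protein known from root patterning, had a difference of 0.63, and the stress-induced linker histone HIS1-3 had 0.60. BGLU45, CuAO1, STR18, MYC3, XERICO, JKD and HIS1-3 were chosen for mention after their values were seen, because they carry a symbol.

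The widest gaps among named members belonged to AT1G11210 (0.70), AGL71 (0.53), AT3G18840 (0.50), AT2G07691 (0.39) and AT5G12350 (0.37). AT3G18840, a pentatricopeptide repeat protein of the family that processes organelle RNA, had 68.9 and 69.3 in T13, 75.1 and 74.3 in T14, 31.4 and 43.9 in HET, and 35.5 and 37.4 in CON. The 2 arrays of each single line differed by under 1 intensity unit. AT1G11210 had 33.5 and 26.7 in T13, 25.4 and 44.6 in T14, 9.5 and 6.6 in HET, and 9.5 and 8.8 in CON. These are dim values, and AT1G11210 lay below the intensity filter. AT5G12350, an RCC1-family protein with a FYVE domain, had 62.8 and 89 in T13, 62 and 77.3 in T14, 39.8 and 37.9 in HET, and 19.2 and 44.5 in CON.

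**Figure D3:**
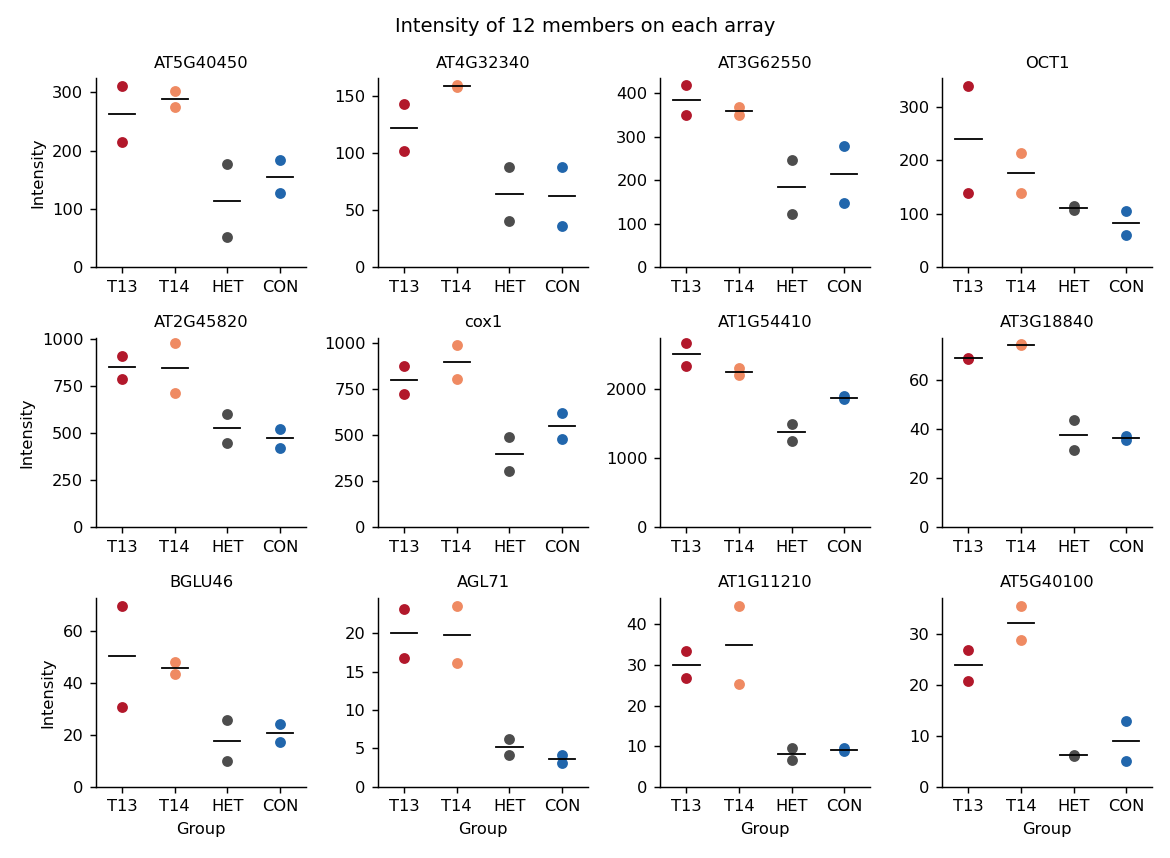
Intensity (vertical axes, from 0, a separate scale per gene) of 12 members in T13, T14, HET and CON (horizontal axes); points are single arrays and lines are group means. In every panel the 4 points of T13 and T14 lie above the 4 points of HET and CON, as the rule requires.

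The other named members among the 25 greatest differences were AT5G03090 (0.97), AT1G32840 (0.89), AT1G42705 (0.88), AT3G42600 (0.83), AT2G42190 (0.83), AT5G66180 (0.80), AT2G23700 (0.79), AT3G30396 (0.78), AT1G13650 (0.77), the protein kinase AT2G39110 (0.75), AT5G02650 (0.72), AT2G21655 (0.71) and AT2G07691 (0.71). A single array weighed heavily on AT5G66180, whose difference was 0.47 without CON replicate 1, and on AT2G21655, whose difference was 0.47 without T14 replicate 2. Just inside the 0.5 minimum lay the pentatricopeptide repeat gene AT5G50270 (0.5015) and 2 unnamed probe sets (0.5021 and 0.5022). The difference of AT5G50270 was 0.31 without T13 replicate 2, where it read 63.7, against 26.7 on the other T13 array and 36.9 and 30.3 in T14. Just outside lay AT4G28240 (0.4997), an unnamed probe set (0.4986) and AT3G44820 (0.4978), so the minimum separates no distinct groups.

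Of the 113 members with a RefSeq gene, 12 were pseudogenes (10.6%, against 7.4% of the searched probe sets with a RefSeq gene). AT1G32840, AT1G42705, AT3G42600 and AT3G30396 were among them. No pseudogene member exceeded an intensity of 68.4 on any array, and 9 of the 12 lay below the intensity filter. Probe sets marked as able to read several sequences, by the suffix s or x, were 18 of 194 (9.28%), against 4.6% of those searched. The members were spread over all 5 nuclear chromosomes: chromosome 1 held 33, chromosome 2 held 21, chromosome 3 held 23, chromosome 4 held 13 and chromosome 5 held 23. Their shares were within 4 percentage points of those of the searched probe sets. Among members with a RefSeq gene, 8 pairs were at most 5 genes apart. BGLU45 with BGLU46, AT3G57160 with AT3G57170, and AT5G66170 (STR18) with AT5G66180 were direct neighbours. Pairs were not counted in other sets of searched genes, so the 8 are no measure of clustering.

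Transcripts of the mitochondrial genome made up a recognisable group, picked out after the values were seen. The 8 such members comprised cox1, nad1 and nad5, which encode subunits of respiratory complexes, AT2G07691 and AT2G07693 from the copy of the mitochondrial genome on chromosome 2, and 3 probe sets that list a mitochondrial gene together with a nuclear chromosome 2 gene. The cox1 probe set had 873.7 and 720.7 in T13, 803.7 and 990.8 in T14, 303.9 and 489.6 in HET, and 476.8 and 617 in CON (difference 0.86). The nad1 probe set had 102.1 and 99.7 in T13, 93.8 and 153.4 in T14, 47.2 and 77.5 in HET, and 58 and 75.3 in CON (difference 0.67). The nad5 probe set had 203.1 and 169.8 in T13, 176.4 and 197.1 in T14, 78.5 and 134.7 in HET, and 111.3 and 158.7 in CON (difference 0.60). In 6 of the 8, HET replicate 1 was the lowest of all arrays.

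Set against the CON mean, these 8 members had median differences of 0.67 and 0.41 in T13, 0.53 and 0.68 in T14, and -0.50 and 0.05 in HET. HET replicate 2 thus lay at the level of CON and HET replicate 1 well below it. In all, 52 searched probe sets were named for mitochondrial genes by the same naming rule, and 45 of them had a positive difference. Their median was 0.29, against 0.05 over all probe sets searched, where positive differences were thus also common. The block of 150 probe sets that was not searched, which includes mitochondrial and chloroplast genes, met the rule in 27 cases (18%, against 0.859% of those searched). With HET replicate 2 as the only HET array the block met the rule in 6 cases (4%), against 183 of the 22596 probe sets searched. The GAPDH ratio given above was also highest on HET replicate 1, and its part in the mitochondrial values was not tested.

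**Figure D4:**
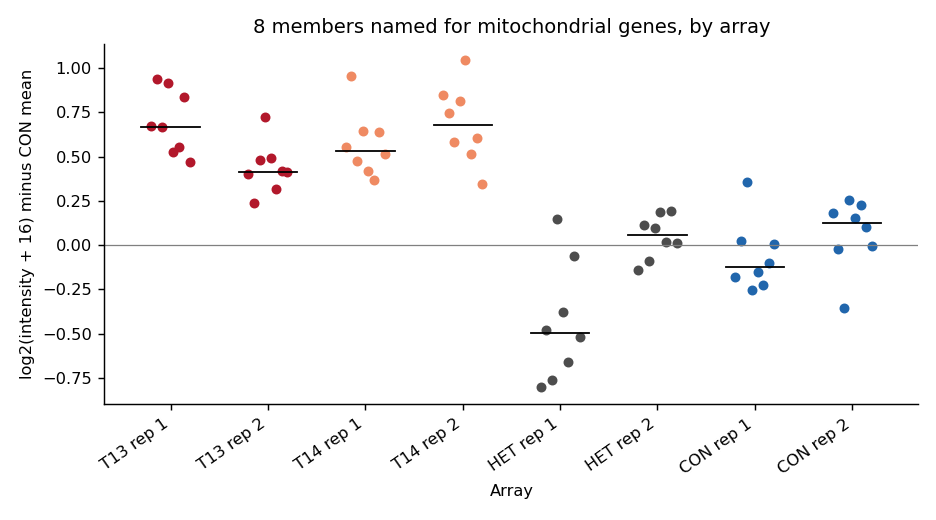
Log2(intensity + 16) minus the CON mean of the same probe set (vertical axis) for the 8 members named for mitochondrial genes on each array (horizontal axis); lines are medians. HET replicate 1 has a median of -0.50 and HET replicate 2 a median of 0.05.

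The 2 HET arrays sat at different distances from the single lines. Both took part in the choice of the members, so their positions in the members are a description. HET replicate 1 was the lowest of the HET and CON arrays in 83 of 194 members (against 29.92% of all probe sets searched) and HET replicate 2 in 14 (against 17.58%). HET replicate 2 was the highest of them in 77 (against 29.38%) and HET replicate 1 in 21 (against 20.5%). HET replicate 1 lay below both CON arrays in 89 of the 194 members, against 36.3% of all probe sets searched. HET replicate 2 lay above both CON arrays in 88 of the 194, against 37.2% of all probe sets searched. The mean of the single lines exceeded HET replicate 1 by a median of 0.75 and HET replicate 2 by a median of 0.49. Over all probe sets searched these medians were 0.09 and 0.01.

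**Figure D5:**
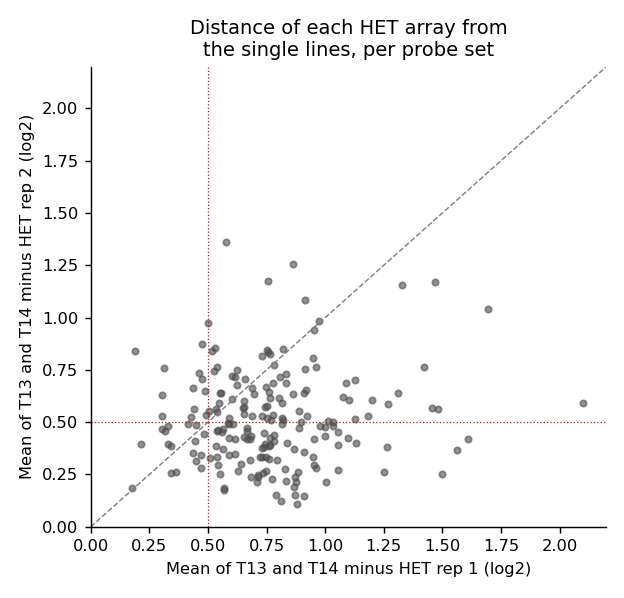
For each of the 194 members, the mean of T13 and T14 minus HET replicate 1 (horizontal axis) and minus HET replicate 2 (vertical axis), in log2 units; the dashed line marks equal distances and the dotted lines mark 0.5. All points are above 0 on both axes, as the rule requires, and 92 reach 0.5 for HET replicate 2, where 5.11% of all probe sets searched do, and 164 for HET replicate 1, where 11.9% do.

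With HET replicate 2 as the only HET array, the rule chose 183 probe sets, of which 139 were members. The other 55 members still had all single-line arrays above CON and HET replicate 2, but their mean difference was then under 0.5. With HET replicate 1 as the only HET array, the rule chose 402 probe sets, of which 187 were members. With either HET array, these shared counts rest on values that chose the members. Over all members the median difference was 0.56 with HET replicate 2 alone and 0.63 with HET replicate 1 alone.

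Arrays that took no part in the choice were then read. Of the 402 probe sets chosen without HET replicate 2, that array lay below all 4 single-line arrays in 236 (58.7%), against 19.8% of all probe sets searched. In the 402 it lay a median of 0.27 below the mean of the single lines. It lay 0.36 above the mean of the other HET and CON arrays, and so nearer to the single lines. This was not particular to HET replicate 2. When CON replicate 1 was left out in the same way, it lay 0.27 below and 0.33 above. CON replicate 2 lay 0.34 below and 0.31 above. In each case the other HET and CON arrays were chosen to be low, which widens the distance to them. Of the 183 chosen without HET replicate 1, that array lay below all single-line arrays in 152 (83.1%), against 32.8% of all, at a median of 0.58 below the single lines. When the rule used only the single lines and CON, it chose 468 probe sets, and both HET arrays lay below all single-line arrays in 197 (42.1%, against 12.4% of all). Choosing probe sets for high single-line arrays raises these shares by itself, so the shares of all probe sets are no like-for-like baseline.

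The single lines were read in the same way. Of 551 probe sets chosen without T13, both T13 arrays lay above all HET and CON arrays in 208 (37.8%, against 12.1% of all). Of 636 chosen without T14, both T14 arrays did so in 206 (32.4%, against 9.93% of all). Of 859 chosen without CON, both CON arrays lay below all single-line arrays in 218 (25.4%, against 10.3% of all). Leaving out a single T13 or T14 array, between 57 and 64.7% of the probe sets chosen had the absent array on the high side. Over all probe sets searched this share was 25.2 to 29.6%. Leaving out CON replicate 1 or 2, 56.2 and 62% had the absent array on the low side, against 22.8 and 28.3% of all. Here too the choice itself raises the shares, so those of all probe sets are no like-for-like baseline.

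T13 was compared with T14 across 15045 probe sets that passed an intensity filter. This contrast does not enter the mean difference of the rule, but the separation of the arrays used the same values and favours like values within each side. Its counts over the members, and those of HET against CON below, are therefore descriptions and support no statement that the groups are alike. Of the 194 members 127 passed the filter, and 67 did not. Of the 127, 18 reached the filter level on no HET or CON array and 29 on fewer than 2, so these entered through the single lines. In T13 against T14, 0 of these 127 members were called by limma, and 0 had an unadjusted p under 0.05. In the whole comparison 75 probe sets (0.499%) were called and 653 (4.34%) had an unadjusted p under 0.05. The log2 differences of the 127 members ran from -0.49 to 0.46 with a median of -0.01, against 0.02 over all tested. Among the 5 smallest p-values, STR18 had 150 and 114.1 in T13 against 98.3 and 89.4 in T14 (log2 difference 0.42, SE 0.21, limma adjusted p = 0.999). AT3G02860 had 77 and 80.5 in T13 against 129.5 and 90.6 in T14 (-0.39, SE 0.21, limma adjusted p = 0.999).

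HET against CON, with the same limit, gave 0 limma calls among the 127 members, of which 7 (5.51%) had an unadjusted p under 0.05. In the whole comparison 161 probe sets (1.07%) were called and 958 (6.37%) had an unadjusted p under 0.05. The median log2 difference was -0.02 over the 127 members and 0.002 over all tested, with a range over the members from -0.91 to 0.92. The smallest p belonged to AT2G23700, with 9.1 and 12.3 in HET against 34 and 34.4 in CON (log2 -0.91, SE 0.28, limma adjusted p = 0.313). All 4 of these values lay below the filter level of their arrays, and AT2G23700 passed the filter through T13 and T14, so this comparison is between dim values. AT4G33960 had 57.8 and 49 in HET against 31.6 and 25.3 in CON (log2 0.64, SE 0.22, limma adjusted p = 0.485). Its HET arrays were close to the T13 arrays, at 69.3 and 57.9, and its CON arrays were below the filter level.

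The dehydrin AT1G54410, given above, had a log2 difference of HET from CON of -0.45 (SE 0.20, limma adjusted p = 0.758). AT4G14820, a pentatricopeptide repeat protein, had 44 and 47.6 in HET against 30.3 and 26.4 in CON (0.48, SE 0.22, limma adjusted p = 0.77). AT3G56720 had 110.8 and 123.5 in HET against 53.6 and 99.7 in CON (0.57, SE 0.26, limma adjusted p = 0.77). The other 2 of the 7 were unnamed. The median SE over the 127 members was 0.246, so differences of 0.5 would not be detectable for most of them. In simulated data for T13 against T14, 37 of 100 probe sets with a log2 change of 1 were called. Those 100 were drawn only from kept probe sets brighter than the median, so the share does not carry over to dimmer members.

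None of the 126 genes in 15 lists of TCP genes, floral, pollen, tapetum, leaf, cell cycle, hormone and stress genes was a member. Of these genes 25 had a named probe set, and in 0 of the 25 did all single-line arrays lie above all others, against 3.69% of the probe sets searched. The list medians of the difference between the single lines and the other arrays ran from -0.89 (tapetum, 3 probe sets) to 0.18 (cold and water stress, 3 probe sets). The cytokinin response regulator ARR15 had 58.4 and 59.1 in T13, 36.4 and 46.4 in T14, 29.8 and 55.9 in HET, and 29.5 and 36 in CON, so its single lines overlapped with HET replicate 2. COR47, a cold-induced dehydrin, had 1197.9 and 435.8 in T13, 1547.2 and 875 in T14, 392.9 and 899.5 in HET, and 697.8 and 624.1 in CON, and its groups overlapped as well. The late pollen list summed to 11.4 and 19.7 in T13, 56.1 and 77.1 in T14, 14.4 and 11.3 in HET, and 75.1 and 78.7 in CON over the probe sets of ANX1 and ANX2, receptor-like kinases that keep pollen tubes intact, and so did not follow the order of the members. ANX2 had 8.6 and 16.8 in T13, 38.9 and 67 in T14, 4.3 and 9.6 in HET, and 61.6 and 65.1 in CON.

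A subset met the rule under several settings at once. In 3 other scalings (quantile normalization and 2 kinds of median centring) 84 members met it throughout. With a pseudocount of 32 and with each HET array alone added, 52 members met it in all 6 settings, 32 of them with a single gene. They included AT5G40450, AT4G32340, AT3G62550, OCT1, AT2G45820, AT3G18840, AGL71, BGLU46, cox1 and nad1. Also among them were AT1G11670, a MATE-family efflux carrier, at 142.2 and 150.7 in T13, 199.5 and 152 in T14, 98.1 and 88.4 in HET, and 93.6 and 112.3 in CON. AT2G20740, a tetraspanin, had 210.9 and 222.3 in T13, 231.5 and 222.3 in T14, 125.7 and 172.3 in HET, and 140.7 and 124.2 in CON. This subset was formed after the values were seen and carries no test.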

How the data were processed

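Values of 8 ATH1 arrays in 4 groups, with 2 arrays each, were used as deposited. Per the labels' protocols, total RNA was labelled and hybridised to the ATH1 array, and plants were grown in compost at 18 °C with 16 h of light per day. The deposited values are signal intensities per probe set on a linear scale, with a mean near 100 on every array after trimming 2% from each end. The software that summarised the probe sets is not given in the labels, and arrays have no read depth, so their number limits the precision. The median intensity was 51.4 to 59.5 per array.

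Values were taken as log2(intensity + 16). Of 22810 probe sets, 64 controls and a block of 150 were left out, and 22596 were searched. For tests, probe sets had to reach the 40th percentile of an array on at least 2 arrays, which kept 15045, with 120 of the block among them. T13 against T14 and HET against CON, both orthogonal to the mean difference of the rule but not to its separation of arrays, were tested with limma 3.58.1 in R 4.3.3 (lmFit, eBayes with an intensity trend, all 4 groups, Benjamini-Hochberg, adjusted p under 0.05, two-sided). Counts and figures were made with Python 3.11.15 and matplotlib 3.10.9. The limma step was tested on simulated data for T13 against T14: of 15045 probe sets, 37 of 100 with a log2 change of 1 and 93 of 100 with a log2 change of 2 were called, with 9 false calls. The changes were placed only in probe sets brighter than the median of those kept.

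Gene names come from the annotation of the platform, with symbols renewed by Entrez identifier in RefSeq's TAIR10.1 table. The table names no product, so functional classes were read from its synonyms. A planned search of promoters for TCP motifs was not run, as no promoter sequences were given. Start coordinates in the RefSeq table were used to order genes along the chromosomes when neighbouring members were counted. The members and gene lists were chosen with earlier results of these data known. Named genes were TCP15, the 25 members of a single gene with the greatest difference, the 5 with the highest mean intensity, the 5 with the widest gap, members called in a test or in a gene list, and the 3 probe sets nearest the minimum on each side. Alternatives covered the pseudocount, scaling, filter, difference minimum, covariates and each array left out.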

Additional observations from a re-analysis of the deposited data

Results flagged for a closer look

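The 5′ to 3′ GAPDH ratio on HET replicate 1 was 0.345, against 0.086 and 0.129 on the CON arrays. The actin ratio of that array, 0.0732, was within the range of the other arrays. The GAPDH ratio is a control measure and no member value, and it enters the comparisons only as a covariate in an alternative. Of the 150 probe sets in the block that was not searched, 27 (18%) met the rule for higher values in both single lines, against 0.859% of those searched. The block was outside the search for members, although 120 of its probe sets were among those tested in T13 against T14 and HET against CON. Both results are given because they are signals outside the values that define the members. With 2 arrays per group, no search for outlying arrays within a group was made.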

How the results depend on the processing

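The 194 members became 432 with a pseudocount of 1, 77 with one of 32, 127 after quantile normalization, 87 after median centring and 109 after centring on the kept probe sets. They were 834 with no difference minimum, 5 with a minimum of 1, 127 with the intensity filter and 95 with a mean intensity of at least 50. Asking each single line to lie 0.5 above each of HET and CON left 54, and leaving out the mitochondrial probe sets left 186. Leaving out 1 array at a time gave 183 (without HET replicate 1) to 402 (without HET replicate 2). Each removal but that of HET replicate 1 moved the number by over 1.5 times. A removal leaves fewer arrays to separate and also changes the mean difference, and the part of each was not tested. The requirement of 0.5 over each group, the removal of mitochondrial probe sets and the centring on kept probe sets were chosen after seeing the data.

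The 75 calls in T13 against T14 became 0 without the filter (limma, 1122 at an unadjusted p under 0.05), 0 with the scanner background as a covariate (450 unadjusted), 38 with the GAPDH ratio as a covariate and 4 with the 2 groups alone. Without 1 array they were 8 to 74, moved by over 1.5 times by each removal but that of T14 replicate 1 and fewest without T13 replicate 1. The 161 calls in HET against CON became 102 with the scanner background and 52 with the GAPDH ratio as a covariate, and 85 to 184 without 1 array. They were 104 without CON replicate 2, 85 without HET replicate 1 and 104 without HET replicate 2. The cause was not tested. Members called by limma were 0 in every one of these settings, with 0 to 4 (T13 against T14) and 1 to 14 (HET against CON) at an unadjusted p under 0.05. Of the named members' differences, 351 values under the alternatives moved by less than the spread between replicates and 21 moved by more, with none reversed. Other pseudocounts, centring and leaving out an array could not have reversed a sign, given the separation and the minimum of the rule. No paired analysis was possible because the labels give no replicate numbers that pair arrays across groups. The number of arrays limits all of these comparisons.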
